A study of Xenopus tropicalis with 52 samples.

Results

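*Xenopus tropicalis* embryos that had lost Wnt, Nodal and BMP signaling together were compared with control embryos at stage 9+, the late blastula, when the zygotic genome has just become active. This comparison holds 6 of the 52 samples of the series, 3 libraries of Wnt/Nodal/BMP loss of function (LOF) and 3 of the DMSO control. Each library was made from poly(A) RNA of 10 to 15 whole embryos of out-bred wild-type stock, and a LOF library and a control library of the same replicate number came from the same mother. For the triple LOF, zygotes received 5 ng of an antisense morpholino oligo (MO) against β-catenin, which blocks its translation and with it canonical Wnt signaling, and were kept from the 8-cell stage in 100 µM SB431542, which inhibits the Nodal receptors, and 10 µM LDN193189, which inhibits the BMP receptors. The control embryos had no injection and were raised in DMSO, the solvent of the inhibitors, so the loss of β-catenin and the injection of an MO cannot be told apart here. The Wnt/Nodal, Wnt/BMP and Nodal/BMP double LOFs of the same experiment (3 libraries each) combined the same agents in pairs, and the whole experiment had 8 groups of 3 libraries.

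The first cell cycles of a frog embryo run on maternal RNA and protein, and transcription of the zygotic genome starts in earnest around the mid-blastula transition (MBT). Maternal β-catenin enriched on one side of the embryo switches on the first dorsal genes, Nodal ligands made by vegetal cells induce mesoderm and endoderm, and BMP ligands, which organizer antagonists hold back on the dorsal side, pattern the ventral side and the ectoderm. Many genes that every cell needs are activated at the same time without an obvious regional bias. The question asked of the triple LOF was which zygotic genes are lost and which are kept when all 3 signals are missing.

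Exon reads on genes came to between 41622595 and 45443446 in the triple LOF and between 32716602 and 40895797 in the control, and intron reads to between 1583006 and 1914882 and between 1320113 and 1750926. Levels are given as exon counts scaled to a common library size (normalized counts), which may be compared between libraries for one gene but not between genes, since they are not divided by gene length. Genes with an adjusted p of 0.1 or less, from the quasi-likelihood test of edgeR, were called. A called gene was classed as lost when its level fell at least 4-fold and as partly lost when it fell between 1.5-fold and 4-fold, and it was classed as higher when it rose at least 1.5-fold. A gene was classed as kept only when the 95% interval of its change lay within 1.5-fold in both directions, and as unresolved when none of these held. Exon counts do not separate maternal from new RNA, so kept describes the level of RNA and not transcription. The RNA of β-catenin (*ctnnb1*) was at 86161, 85637 and 89262 normalized counts in the triple LOF against 110770, 87491 and 85572 in the control (log2 fold change -0.11 ± 0.08 (SE), adjusted p = 0.628), which checks nothing, because the MO acts on translation. In whole embryos a smaller number of cells expressing a gene cannot be told apart from less RNA per cell.

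Zygotic genes without maternal RNA held a larger share of lost genes than the whole table. Of 16001 genes tested, 883 fell (5.52%) and 420 rose (2.62%), 524 fell at least 1.5-fold (3.27%), 118 rose at least 1.5-fold (0.737%), 315 were lost (1.97%) and 9866 were kept (61.7%). These shares are the background for the counts of every list below. Of the 2898 genes listed by the study as covered by RNA polymerase II by the MBT, 2831 passed the filter on low counts; 131 of these were lost, 117 partly lost, 1995 kept (70.5%), 37 higher and 551 unresolved. Among the 247 listed genes with a maternal level under 0.1 TPM, called solely zygotic below, 228 were tested and 75 of them were lost (32.9%), 19 partly lost, 13 kept, 10 higher and 111 unresolved. Among 2603 tested zygotic genes with more maternal RNA, 56 were lost (2.15%), 98 partly lost, 1982 kept (76.1%), 27 higher and 440 unresolved. The median log2 fold change was -0.63 for the solely zygotic genes, -0.02 for the zygotic genes with maternal RNA and 0.01 for all genes tested. Just inside the limit of 4-fold lay *menf.1* at a log2 fold change of -2.01, and the nearest partly lost gene lay at -1.99.

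**Figure D1:**
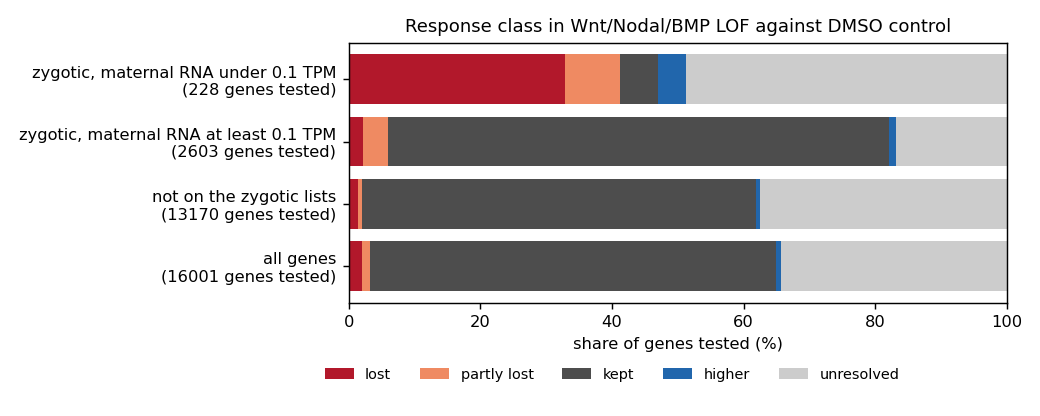
Share of tested genes (x axis, %) in each response class after triple LOF, for all genes and for 3 sets split by the study's zygotic list and by maternal level. The solely zygotic genes hold 32.9% lost genes against 1.97% of all genes.

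Among solely zygotic genes, the share of lost genes was above that of all genes at every step of genome activation. Of the solely zygotic genes covered from the 32-cell stage, 5 of 9 tested were lost, and of those first covered at the next stage listed, still before the 1,024-cell stage, 4 of 18. The shares were 32 of 111 from the 1,024-cell stage and 34 of 90 from the MBT. Over all zygotic genes tested, the lost shares at these steps, in order, were 19.2%, 7.76%, 5.61% and 3.74%. They fell from step to step toward the 1.97% of all genes. The shares of solely zygotic genes alone, 55.6%, 22.2%, 28.8% and 37.8%, did not fall in this way. Solely zygotic genes made up 9 of 26, 18 of 116, 111 of 873 and 90 of 1816 genes tested at these steps. Kept solely zygotic genes were found before the 1,024-cell stage (2 genes), from the 1,024-cell stage (9) and the MBT (2). Lost genes were measured over a wide range of control levels, from 14.8 to 23950 normalized counts with a median of 1136, and kept genes from 163.1 to 11853 with a median of 575.2, while unresolved genes began at 3.41. In 74 of the 75 lost genes every triple LOF library lay below every control library, as in 17 of 19 partly lost and 9 of 111 unresolved ones. The classes were set by falls in these same libraries, so this only describes them. The share over all genes was not computed. A further 184 lost genes were not on the zygotic lists.

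The classes were defined on the same 3 replicate pairs, so their levels by pair are a description. All 75 lost solely zygotic genes were at or below 66.7% of control in each of the 3 pairs, with a median of 2.01% of control in pair 1, 9.09% in pair 2 and 11.4% in pair 3. The median over all 16001 genes was 100.4%, 99.8% and 99.7%, while the 111 unresolved solely zygotic genes had medians of 61.8%, 103.5% and 127.98%. Of these 111 genes, 31 were at least 1.5-fold lower in one pair and at least 1.5-fold higher in another. The same held for 1196 of all 16001 genes and for 78 of 2603 zygotic genes with more maternal RNA. Pair 1 thus had the lowest medians of both classes, and what sets pair 1 apart was not tested.

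The number of lost genes varied with the fit. Without the replicate number in the model, 66 of the 75 solely zygotic genes were lost and the others were unresolved, and genes called over the whole table dropped to 419 lower and 59 higher. Leaving out replicate 2 of every group had the strongest effect, with 47 of the 75 still lost, against 65 without replicate 1 and 72 without replicate 3. None of the 75 became kept under any of 16 alternative fits, and 33 were lost under all of them. Of the 13 kept genes, 4 were kept without the replicate number and 7 without replicate 2, and none was called 1.5-fold lower or higher in any of these fits.

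The first genes downstream of maternal β-catenin were all lost. The list of early dorsal Wnt targets holds *sia1*, *sia2* and *sia.3*, homeobox factors of the siamois family, and *nodal3.1*, *nodal5* and *nodal6*, early Nodal-type ligands, and all 6 were lost with a median log2 fold change of -5.16. *sia1* was at 302, 268 and 646 normalized counts in the control and at 0, 0 and 19.2 in the triple LOF (log2 fold change -6.06 ± 0.46 (SE), adjusted p = 1.84e-06). *nodal3.1*, an atypical ligand of the organizer, was at 779.7, 1244 and 2012 and at 0, 2.50 and 50.5 (log2 fold change -6.37 ± 0.45 (SE), adjusted p = 2.90e-07). Both were silent or nearly so in pairs 1 and 2 and kept a trace in pair 3, and neither group overlapped the other. *nodal5* was at 39.3, 81.9 and 91.8 against 0, 5.83 and 7.21 (log2 fold change -4.03 ± 0.62 (SE), adjusted p = 0.000339). *nodal6* kept more, at 21.4%, 31.3% and 18.3% of control (log2 fold change -2.17 ± 0.48 (SE), adjusted p = 0.00782), and was no longer called without the replicate block (adjusted p = 0.238) or without replicate 2 (0.162). *sia2* and *sia.3* had only 1 and 3 exon reads in the triple LOF libraries together, against 86 and 48 in the control, which is 0.938% of control (95% counting interval 0.0235% to 5.37%) and 5.04% (1.00% to 15.7%). Without replicate 2, 5 of the 6 were still called, and 4 of the 6 missed the threshold in at least 1 of the 16 alternatives.

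Nodal ligands and the genes of their feedback loop were mostly lost as well. Of 11 genes, 3 of them also on the list above, 8 were lost, 2 were kept and 1 was unresolved. *nodal1* was at 801, 1120 and 988 normalized counts in the control and 2.62, 26.7 and 13.6 in the triple LOF (log2 fold change -6.24 ± 0.47 (SE), adjusted p = 2.08e-07). *nodal2* retained 12%, 21.3% and 10.5% of its control level, 975, 1409 and 1022 against 117, 301 and 107 (log2 fold change -2.83 ± 0.23 (SE), adjusted p = 3.78e-07). The feedback inhibitor *lefty* was at 5657, 5442 and 4484 against 167, 483 and 228 (log2 fold change -4.29 ± 0.35 (SE), adjusted p = 4.39e-07). All 3 genes were far below control in each pair and were called in each of the 16 alternatives. *cer1*, a secreted antagonist of Nodal, BMP and Wnt ligands made by anterior endoderm, had no exon read in any triple LOF library against 2570, 1135 and 662 normalized counts in the control, at least 580-fold lower when 3 reads per library are taken as the floor. The exon levels of *gdf3* and *gdf1*, Vg1-type ligands that act with Nodal, were kept, *gdf3* at 4743, 5525 and 5487 against 4820, 4413 and 5641 (log2 fold change 0.09, 95% interval -0.14 to 0.32) and *gdf1* at 2827, 2156 and 2313 against 2005, 2095 and 2183 (log2 fold change 0.20, 95% interval 0.01 to 0.39). Neither gene was among the solely zygotic genes that were kept, so these levels do not show whether their transcription was kept. *foxh1.2*, related to the Nodal cofactor Foxh1, rose by less than 1.5-fold (log2 fold change 0.55 ± 0.16 (SE), adjusted p = 0.0442), and without replicate 2 this call was lost (adjusted p = 0.194), as it was without replicate 3 (0.103).

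**Figure D2:**
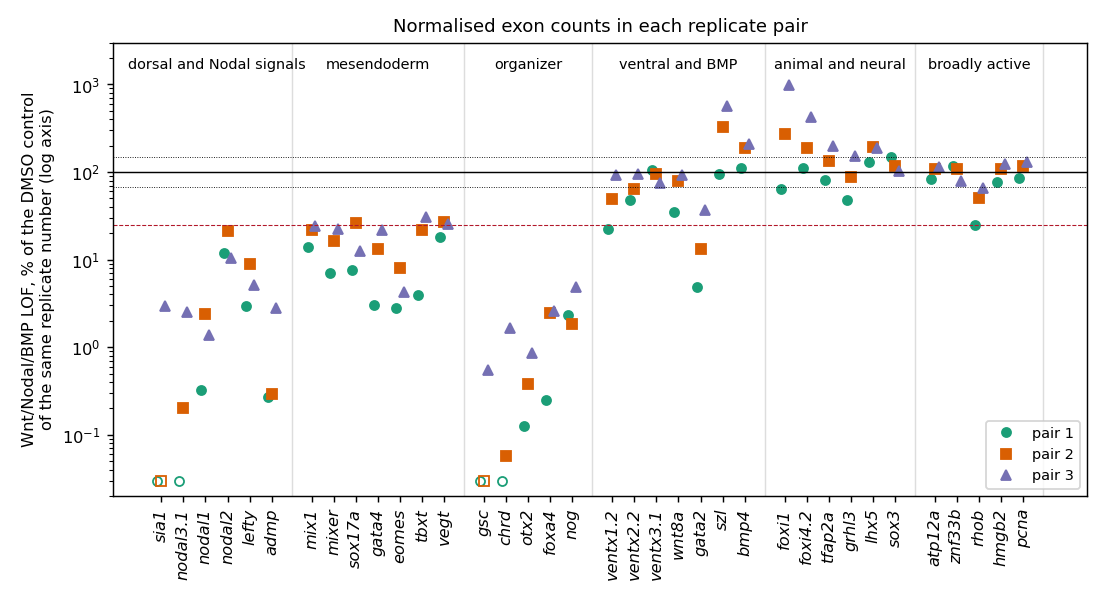
Level of 36 genes in the triple LOF as % of the control of the same replicate number (log axis), 1 point per pair; open symbols at the lower edge stand for values under 0.03%, the solid line for 100%, the dotted lines for a 1.5-fold change and the dashed line for 25%. Dorsal, Nodal, mesendoderm and organizer genes lie near or below 25% in all pairs, with *vegt*, *sox17a* and *tbxt* above that line in some pairs. By contrast, *foxi1* spreads from 64.4% to 991.4%.

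Genes that specify mesoderm and endoderm fell together. All 5 Mix and Bix homeobox genes tested were lost, 7 of 9 endoderm factors were lost and 2 were unresolved, and 12 of 16 T-box and other mesoderm factors were lost and 4 unresolved, with median log2 fold changes of -3.04, -2.73 and -2.68. Intron counts, which come mostly from unspliced RNA, fell for 4 of 4, 8 of 8 and 9 of 10 of the genes of these lists that had enough of them, where 5.96% of 11499 genes fell and 1.64% rose by intron counts.

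*mix1*, a mesendoderm homeobox gene, was at 23398, 18560 and 16161 normalized counts in the control and at 3269, 4059 and 3885 in the triple LOF (log2 fold change -2.38 ± 0.22 (SE), adjusted p = 1.84e-06). *mixer* was at 22722, 26872 and 18232 against 1578, 4421 and 4128 (log2 fold change -2.90 ± 0.42 (SE), adjusted p = 0.000206). *bix1.1*, a Bix gene of the same family, was at 2687, 3056 and 2814 against 255, 446 and 262 (log2 fold change -3.19 ± 0.16 (SE), adjusted p = 1.41e-09). *mixer* kept 6.94%, 16.5% and 22.6% of control, more than *sebox*, which was at 0.144%, 3.39% and 2.52%. All 5 were called in every alternative.

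*sox17a*, a core endoderm factor, was at 12406, 9762 and 7889 against 936, 2574 and 979 (log2 fold change -2.93 ± 0.31 (SE), adjusted p = 7.61e-06). *gata4* was at 13927, 7002 and 5441 against 422, 919 and 1186 (log2 fold change -3.45 ± 0.63 (SE), adjusted p = 0.00169). *hhex*, a homeobox gene of anterior endoderm, was at 1453, 1210 and 952 against 7.87, 10.00 and 10.4 (log2 fold change -7.05 ± 0.61 (SE), adjusted p = 8.88e-07). *hhex* thus was nearly abolished in every pair, while the GATA factors kept 3.03% to 32.4% of control and differed more between pairs. *gata4*, *gata5* and *gata6* were not called without replicate 2 (adjusted p = 0.147, 0.162 and 0.11). *foxa1* and *foxa2*, forkhead factors of the endoderm, were unresolved: *foxa1* was at 5.17%, 43.2% and 61.4% of control (log2 fold change -2.15, adjusted p = 0.116) and *foxa2* at 14.4%, 93.9% and 107% (log2 fold change -1.04, adjusted p = 0.28), low in pair 1 and, for *foxa2*, near control in the other pairs.

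Among the T-box factors, which set up mesoderm and endoderm, *eomes* was at 17887, 20472 and 20116 normalized counts against 503, 1648 and 854 (log2 fold change -4.43 ± 0.40 (SE), adjusted p = 1.27e-06). *tbxt* (brachyury) was at 23385, 13809 and 10545 against 922, 3033 and 3269 (log2 fold change -2.81 ± 0.65 (SE), adjusted p = 0.0117), and was not called without replicate 2 (adjusted p = 0.307). *vegt*, whose RNA is both maternal and zygotic, was at 81225, 67983 and 58013 against 14696, 18431 and 14851 (log2 fold change -2.12 ± 0.19 (SE), adjusted p = 1.49e-06). In all 3 genes the groups did not overlap, and pair 1 was the lowest. *snai1*, a mesodermal zinc finger gene, was at 12.6%, 23.1% and 19% of control (log2 fold change -2.50, adjusted p = 6.75e-06), *mespb* at 0.361%, 3.46% and 3.50% (log2 fold change -5.73, adjusted p = 8.59e-05), *osr1* at 0.379%, 1.22% and 4.11% (log2 fold change -6.44, adjusted p = 0.000116) and *foxc1* at 1.72%, 15.8% and 13.1% (log2 fold change -4.05, adjusted p = 0.00133). The *cdx* genes, homeobox factors of the posterior body, split the pairs: *cdx1* was at 22.2%, 99.7% and 222% of control, *cdx2* at 3.07%, 16.7% and 117% and *cdx4* at 9.63%, 44.4% and 148%. Only *cdx2* of them was called (log2 fold change -2.43, adjusted p = 0.0794), its groups overlapped, and the call was lost without the block (adjusted p = 0.136), without replicate 1 (0.294) and without replicate 2 (0.737). Of the 12 lost genes 10 were called without the block, 8 without replicate 2 and 5 in every alternative.

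FGF and Wnt ligands and their feedback genes gave a graded picture. Of 9 FGF genes tested, 3 were lost, 3 partly lost, 1 kept and 2 unresolved. *fgf20* was at 334, 306 and 321 normalized counts in the control and at 7.00, 31.7 and 39.3 in the triple LOF (log2 fold change -3.66 ± 0.51 (SE), adjusted p = 0.000134), whereas *fgf8* kept 26.1%, 52.4% and 36.7% of its level (1750, 1432 and 1441 against 457, 751 and 528; log2 fold change -1.45 ± 0.23 (SE), adjusted p = 0.000399). Of the FGF feedback inhibitors, *spry1* was at 13.6%, 25.6% and 28.1% of control (log2 fold change -2.22, adjusted p = 1.29e-05), *spry2* at 29.8%, 39.2% and 33.9% (log2 fold change -1.56, adjusted p = 6.97e-07) and *spry4* at 1.12%, 7.01% and 14.3% (log2 fold change -4.28, adjusted p = 0.000476, without replicate 2 adjusted p = 0.103). The FGF antagonist *il17rd* was kept (log2 fold change -0.13, 95% interval -0.28 to 0.02).

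Of 15 Wnt ligands, antagonists and feedback genes, 5 were lost, 4 partly lost, 3 kept and 3 unresolved. The lost genes include *dkk1*, *frzb* and *frzb2*, which are counted again among the secreted organizer factors below. *wnt8a*, the ventrolateral Wnt ligand of the gastrula, was at 5999, 3824 and 3070 against 2085, 3011 and 2806 (log2 fold change -0.71 ± 0.23 (SE), adjusted p = 0.0868), low in pair 1 and close to control in pair 3, and was not called without the block (adjusted p = 0.189), without replicate 1 (0.163) or without replicate 2 (0.489). *wnt11b*, a ligand of gastrulation movements, fell in each pair (22.6%, 31.1% and 34.3% of control; log2 fold change -1.79, adjusted p = 1.39e-06), as did *wnt5b* (18.2%, 44.6% and 55.6%; log2 fold change -1.55, adjusted p = 0.011), though not when replicate 2 was left out (0.294). The receptor gene *fzd8* was lost (2748, 2195 and 2358 against 48.1, 120.0 and 173; log2 fold change -4.51 ± 0.43 (SE), adjusted p = 2.43e-06). *sp5* and *lef1*, a target and a nuclear partner of β-catenin, differed in their calls: *sp5* was at 13%, 42.7% and 70.4% of control and was called (log2 fold change -1.32, adjusted p = 0.0766), though not without the block (adjusted p = 0.345), replicate 1 (0.267) or replicate 2 (0.437), while *lef1* was at 16%, 49.9% and 94% and was not called (log2 fold change -1.30, adjusted p = 0.182). *nkd1*, *znrf3* and *frat1*, modulators of the Wnt pathway, were kept, with log2 fold changes of -0.04, -0.14 and 0.07.

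The secreted organizer factors had the largest median fall of the 18 lists. All 10 secreted organizer factors tested were lost, with a median log2 fold change of -6.25 and medians per pair of 0.216%, 0.280% and 2.80% of control, and *shh* had too few reads to be tested. The list shares *lefty* and *cer1* with the Nodal list and *dkk1*, *frzb* and *frzb2* with the Wnt list, so these losses are not separate from those above. *chrd*, the BMP antagonist chordin, was at 12082, 8705 and 8601 normalized counts in the control and at 0, 5.00 and 142 in the triple LOF (log2 fold change -7.77 ± 0.69 (SE), adjusted p = 1.14e-06). *nog*, another BMP antagonist, was at 926, 1305 and 1438 against 21.9, 24.2 and 69.7 (log2 fold change -5.01 ± 0.38 (SE), adjusted p = 2.32e-07). *admp*, an organizer BMP ligand, was at 2600, 2870 and 3754 against 7.00, 8.33 and 106 (log2 fold change -6.45 ± 0.49 (SE), adjusted p = 2.32e-07). Pair 3 held most of what was left of these genes, at 1.65% to 4.85% of control. Of the Wnt antagonists, *dkk1* was at 0.162%, 0.264% and 4.04% of control, *frzb* at 0%, 0.269% and 2.77% and *frzb2* at 0%, 0.175% and 0.684%. *frzb2* had 3 exon reads in the 3 triple LOF libraries against 1910 in the control (0.127% of control, counting interval 0.0261% to 0.371%). *fst* was at 0.712%, 3.31% and 2.23% of control and *pnhd* at 0.747%, 3.57% and 7.26%. Without replicate 2, 8 of the 10 were still called, and *frzb* and *pnhd* were not (adjusted p = 0.123 and 0.102).

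Of 10 organizer transcription factors, 6 were lost, 1 partly lost, 1 kept and 2 unresolved, with a median log2 fold change of -2.43. *gsc* (goosecoid) was at 4904, 4205 and 4044 against 0.875, 0.833 and 22.4 (log2 fold change -9.05 ± 0.70 (SE), adjusted p = 2.46e-07). *otx2*, a head homeobox gene, was at 8913, 6215 and 4885 against 11.4, 23.3 and 42.5 (log2 fold change -7.95 ± 0.78 (SE), adjusted p = 2.67e-06). *foxa4*, one of the most highly counted lost genes, was at 29811, 21972 and 20068 against 73.5, 544 and 526 (log2 fold change -6.19 ± 0.87 (SE), adjusted p = 0.000141). *lhx1* was at 0.403%, 2.61% and 1.94% of control (log2 fold change -6.31, adjusted p = 4.91e-05) and *crx* at 4.55%, 18.8% and 29.3% (log2 fold change -2.79, adjusted p = 0.00286). *not*, a notochord homeobox gene, was partly lost at 36.4%, 53.8% and 57.8% of control (log2 fold change -1.03, adjusted p = 0.00277), and *otx1*, a relative of *otx2*, was kept at 2443, 2053 and 2852 against 2351, 2519 and 2810 (log2 fold change -0.08, 95% interval -0.37 to 0.21). The calls of *crx* and *not* were lost without replicate 2 (adjusted p = 0.162 and 0.145). That of *foxd4l1.1* (12.8%, 26.1% and 32% of control; log2 fold change -2.06, adjusted p = 0.0891) was lost in 10 of the 16 alternatives, among them without the block (adjusted p = 0.214), without replicate 2 (0.58) and without replicate 3 (0.123).

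The largest falls over all genes with a symbol, outside these lists, were of like size. *pcdh8.2*, the paraxial protocadherin of gastrulating mesoderm, was at 25787, 19046 and 15274 normalized counts against 14.9, 88.3 and 32.9 (log2 fold change -9.01 ± 1.12 (SE), adjusted p = 4.35e-05). *pkdcc.2* was at 1814, 1265 and 869 against 7.87, 3.33 and 5.61 (log2 fold change -7.86 ± 0.36 (SE), adjusted p = 8.15e-10), and *spns2*, a sphingosine phosphate transporter, was at 0.102%, 1.52% and 2.54% of control (log2 fold change -6.57, adjusted p = 0.000339), with an adjusted p of 0.123 without replicate 2. *sla* and *dkkx* had 2 exon reads each in the triple LOF libraries, against 622 and 165 in the control, or 0.260% (counting interval 0.0314% to 0.941%) and 0.978% (0.117% to 3.59%) of control.

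**Figure D3:**
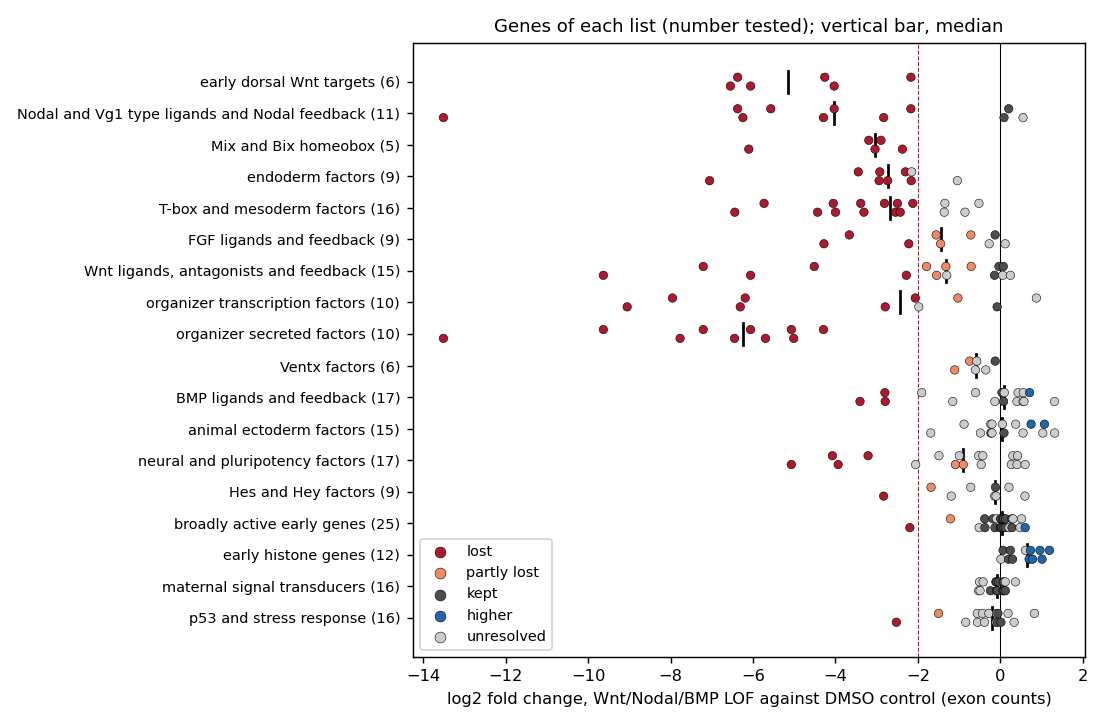
Log2 fold change (x axis) of each tested gene of the 18 gene lists, colored by response class, with a bar at each list's median and a dashed line at the 4-fold limit. The medians of the dorsal, Nodal, mesendoderm and organizer lists lie left of the line; the value of *cer1*, which had no read in the triple LOF, is set by the fit and is no bound.

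Ventral genes, which depend on BMP and on ventrolateral Wnt, were unequal between pairs. Of the 6 Ventx homeobox genes, which repress dorsal fate on the ventral side, 2 were partly lost, 1 was kept and 3 were unresolved, with medians per pair of 45.2%, 70.8% and 92.2% of control. *ventx1.2* was at 2897, 1513 and 1302 normalized counts in the control and at 655, 743 and 1216 in the triple LOF (log2 fold change -1.11 ± 0.33 (SE), adjusted p = 0.0565), and *ventx3.2* at 1032, 686 and 553 against 433, 422 and 483 (log2 fold change -0.74 ± 0.22 (SE), adjusted p = 0.0486). Both calls were lost without the block (adjusted p = 0.104 and 0.161), without replicate 1 and without replicate 2. *ventx2.2* fell by less than 1.5-fold (48.4%, 64.3% and 95.8% of control; log2 fold change -0.57, adjusted p = 0.0511), and this call was lost without the block too (0.334), without replicate 1 (0.176) and without replicate 2 (0.676). *ventx1.1* was at 41.9%, 77.3% and 91% of control and *ventx2.1* at 58.6%, 79.2% and 103%, and neither was called. *ventx3.1*, by contrast, was kept at 1170, 1282 and 847 against 1099, 1352 and 1119 (log2 fold change -0.13, 95% interval -0.31 to 0.06). By intron counts 4 of the 6 fell, with a median log2 fold change of -0.80, where 5.96% of all genes with intron counts fell.

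Of 17 BMP ligands and feedback genes tested, 3 were lost (17.6%, against 1.97% of all genes), 2 kept, 1 higher and 11 unresolved. *gata2*, *msx1* and *msx2*, transcription factor genes that BMP induces, were the lost ones. *gata2* was at 4.90%, 13.4% and 36.9% of control (log2 fold change -2.80, adjusted p = 0.0563), *msx1* at 3.04%, 18.4% and 65.3% (log2 fold change -2.79, adjusted p = 0.0684) and *msx2* at 2.67%, 11.7% and 25.6% (log2 fold change -3.40, adjusted p = 0.000781). None of these 3 calls held without replicate 2 (adjusted p = 0.665, 0.628 and 0.132), and those of *gata2* and *msx1* did not hold without the block (adjusted p = 0.151 and 0.156). The ligand *bmp4* was higher, 4565, 5880 and 5174 against 4126, 3141 and 2464 (log2 fold change 0.71 ± 0.17 (SE), adjusted p = 0.0155), though not without the block (0.132), without replicate 2 (0.589) or without replicate 3 (0.137), and *bmp7.2* rose by just under 1.5-fold, 12286, 11626 and 15005 against 9378, 7130 and 9804 (log2 fold change 0.57 ± 0.07 (SE), adjusted p = 7.73e-05). The ligand *bmp2* and the inhibitory Smad gene *smad6* were kept (log2 fold change 0.04, 95% interval -0.38 to 0.46, and log2 fold change 0.08, 95% interval -0.11 to 0.26). *szl* (sizzled), a secreted feedback inhibitor, was at 95.5%, 324% and 571% of control and *bambi*, a decoy receptor, at 98.3%, 149% and 221%. Pair 1 stayed at the control level where pairs 2 and 3 were above it, and neither gene was called, whereas both were called higher without replicate 1 (adjusted p = 0.02 and 0.00644).

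Ectodermal genes of the animal side showed no loss that passed the test by exon counts. By intron counts 1 of 14 fell and 3 rose, where 5.96% of all genes with intron counts fell and 1.64% rose. Of 15 animal ectoderm factors 0 fell by edgeR's test (1 was lower at an unadjusted p under 0.05, and 0 fell by DESeq2), 2 were kept, 2 were higher and 11 were unresolved, and medians per pair ran at 81.1%, 120.4% and 184.4% of control. *foxi1*, a forkhead gene of the ectoderm, was at 2148, 1503 and 338 normalized counts in the control and at 1384, 4043 and 3347 in the triple LOF (log2 fold change 1.31 ± 0.78 (SE), adjusted p = 0.474). *foxi4.2* was at 10688, 8694 and 4976 against 12003, 16316 and 21158 (log2 fold change 1.03 ± 0.39 (SE), adjusted p = 0.17). In *foxi4.2* every triple LOF library lay above every control library, but the pairs ranged from 112.3% to 425.2%. *tfap2a*, an AP-2 factor, was at 82.2%, 135% and 199.8% of control and *grhl3*, a factor of epidermal barrier formation, at 48.4%, 87% and 152%. The keratin gene *krt5.7* was at 8.09%, 37.4% and 120.1% and was not called (log2 fold change -1.69, adjusted p = 0.243), but it was called lower without replicate 3 (adjusted p = 0.0403). Without replicate 1, *foxi1*, *foxi4.2* and *tfap2a* were called higher (adjusted p = 0.0147, 0.0113 and 0.069). *lhx5* rose in all pairs, 9855, 11471 and 10806 against 7612, 6009 and 5796 (log2 fold change 0.74 ± 0.12 (SE), adjusted p = 0.00063), as did *klf2*, 2065, 2343 and 2010 against 849, 1106 and 1090 (log2 fold change 1.07 ± 0.17 (SE), adjusted p = 0.000463). *klf2* was called in every alternative and *lhx5* in all but 2, with adjusted p = 0.14 without replicate 2. *tfap2c* and *grhl1* were kept (log2 fold change 0.09, 95% interval -0.19 to 0.37, and log2 fold change -0.23, 95% interval -0.49 to 0.02).

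Of 17 neural and pluripotency factors, 4 were lost, 2 partly lost and 11 unresolved. *irx3*, an Iroquois homeobox gene, was at 1761, 768 and 309 normalized counts against 19.2, 31.7 and 24.9 (log2 fold change -5.07 ± 0.65 (SE), adjusted p = 6.58e-05). *foxd3* was at 552, 333 and 138 against 7.87, 30.8 and 16.8 (log2 fold change -4.07 ± 0.54 (SE), adjusted p = 8.05e-05). Both were called in every alternative, while *zeb2* (4.01%, 10.5% and 29.1% of control; log2 fold change -3.21, adjusted p = 0.000341) missed the threshold in 1 of them, the fit of the 6 libraries with the block (adjusted p = 0.126). *zic2*, a zinc finger gene of the neural plate, fell in each pair (50.1%, 43.2% and 47.6% of control; log2 fold change -1.09, adjusted p = 8.73e-06), *zic4* less surely (44%, 63.4% and 55.5%; log2 fold change -0.90, adjusted p = 0.0183, without the block 0.688, without replicate 2 0.215), and *zic1* was not called (70.5%, 63.9% and 74%; log2 fold change -0.53, adjusted p = 0.168). The pan-neural and pluripotency genes *sox2*, *sox3* and *oct91* were not called. *sox2* was at 84.3%, 165% and 250.2% of control, *sox3* at 147%, 118% and 102% and *oct91* at 44.6%, 78.8% and 127%, and *sox2* was called higher without replicate 1 (adjusted p = 0.000245). *sox11* rose by less than 1.5-fold (121%, 134% and 146% of control; log2 fold change 0.42, adjusted p = 0.0112), a call lost without the block (adjusted p = 1) and without replicate 3 (0.12). Of the 9 Hes and Hey genes, repressors downstream of Notch, *hes2* was lost (log2 fold change -2.83, adjusted p = 0.00188), *hes1* partly lost (log2 fold change -1.68, adjusted p = 0.00912, without replicate 2 0.192), *hey1* kept and the other 6 unresolved.

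The list of broadly active genes had a kept share close to that of all genes. The list holds early genes taken as broadly active, and their regional expression was not checked here. Of the 25 tested, 16 were kept (64.0%, against 61.7% of all genes and 70.5% of zygotic genes), 6 unresolved, 1 lost, 1 partly lost and 1 higher, with a median log2 fold change of 0.03. Falls of any size passed the test in 5 of the 25 (20.0%, against 5.52% of all genes). Exon levels do not separate maternal from new RNA, so a kept level does not show that transcription was kept. By intron counts 1 of 17 genes of the list fell and 0 rose, where 5.96% of all genes with intron counts fell and 1.64% rose. The nuclear proteins *hmgb2*, *srsf2* and *srsf7* were at 89713, 101740 and 105610 against 116690, 94743 and 84598 (log2 fold change 0.01, 95% interval -0.29 to 0.31), 35768, 34650 and 35888 against 44648, 35267 and 27466 (log2 fold change 0.00, 95% interval -0.24 to 0.24) and 50437, 58646 and 58148 against 63140, 56488 and 46641 (log2 fold change 0.01, 95% interval -0.29 to 0.31). *cdk9*, the kinase of transcription elongation, was at 18612, 20422 and 19603 against 18499, 20636 and 18417 (log2 fold change 0.03, 95% interval -0.06 to 0.12). *fbxl14* and *marcksl1* were kept by this rule, yet passed the test with small falls (log2 fold change -0.38, adjusted p = 0.00143 and log2 fold change -0.38, adjusted p = 0.00688), which were not called without replicate 2 (0.271 and 0.26). The lost gene was *gadd45g*, a stress and growth arrest gene, at 5.71%, 29.4% and 37.4% of control (log2 fold change -2.20, adjusted p = 0.0323), and the partly lost gene *rhob*, a small GTPase gene, at 25%, 50.9% and 66.5% (log2 fold change -1.21, adjusted p = 0.0125). Neither was called without the block (adjusted p = 0.131 and 0.311) or without replicate 2 (0.449 and 0.162), nor was the rise of the zinc finger gene *znf3* (log2 fold change 0.60, adjusted p = 0.00106; 0.672 and 0.102).

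The solely zygotic genes that were kept and had a symbol were 5 of the 13. *atp12a*, a proton pump subunit, was at 9560, 14599 and 12005 normalized counts against 11573, 13497 and 10489 (log2 fold change 0.01, 95% interval -0.26 to 0.28). *znf33b* was at 1436, 1265 and 1130 against 1218, 1158 and 1437 (log2 fold change 0.01, 95% interval -0.30 to 0.33). *gprc5c*, an orphan receptor gene, was at 285, 672 and 485 against 415, 595 and 379 (log2 fold change 0.01, 95% interval -0.37 to 0.40), and *tmod4* at 153, 143 and 152 against 185, 162 and 142 (log2 fold change -0.12, 95% interval -0.36 to 0.11). The fifth was *ventx3.1*. These genes varied by pair, but none was at or above 150% of control in any pair, and 2 of the 13 kept genes were at or below 66.7% in pair 1.

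Fewer genes rose at least 1.5-fold than fell. The 10 solely zygotic genes classed higher included *lhx5*, *p2ry2*, a purine receptor gene (152%, 170.3% and 170.2% of control; log2 fold change 0.72, adjusted p = 8.54e-06), *cxcr7*, a chemokine receptor gene (137%, 181% and 224%; log2 fold change 0.82, adjusted p = 0.000964), and *pm20d1* (211%, 134% and 129%; log2 fold change 0.62, adjusted p = 0.0547), the last 3 named after their values were seen. Of 12 early histone genes 6 were higher and 4 kept, but 5 of those 6 had a control mean under 50 normalized counts in poly(A) RNA, and no call of the 6 held in every alternative. Over all genes, *plod2*, a lysyl hydroxylase of collagen, was at 397, 366 and 388 normalized counts in the control and at 993, 1188 and 1094 in the triple LOF (log2 fold change 1.51 ± 0.15 (SE), adjusted p = 4.52e-06). *cyp26a1*, which degrades retinoic acid, was at 1847, 1790 and 1533 against 3733, 6322 and 4871 (log2 fold change 1.49 ± 0.17 (SE), adjusted p = 1.37e-05). *pdia6*, a protein disulfide isomerase, was at 2587, 2756 and 2845 against 5842, 5840 and 5282 (log2 fold change 1.05 ± 0.06 (SE), adjusted p = 1.56e-08), with groups that did not overlap. These 3 and *nefl*, a neurofilament gene (222%, 237% and 259% of control; log2 fold change 1.25, adjusted p = 4.19e-06), were called in every alternative, whereas *btg4* (log2 fold change 1.61, adjusted p = 0.016), *lonrf3* (log2 fold change 1.61, adjusted p = 0.0496), *isl1* (log2 fold change 1.21, adjusted p = 0.021) and *slitrk5* (log2 fold change 1.21, adjusted p = 0.074) were not called without replicate 2 (adjusted p = 0.52, 0.31, 0.234 and 0.246). The last 3 were not called without the block either (0.635, 0.982 and 0.188), nor *isl1* and *slitrk5* without replicate 1 (0.157 and 0.171) or *slitrk5* without replicate 3 (0.17). *cenph*, a kinetochore gene, was at 330.5%, 291% and 179% of control (log2 fold change 1.35, adjusted p = 2.93e-06) and was called in all but 1 alternative. The mean level of *pdia6* was 191%, 202% and 204% of control in the Wnt, Wnt/Nodal and Wnt/BMP LOFs, which received the β-catenin MO, and 105%, 107% and 115% in the Nodal, BMP and Nodal/BMP LOFs, which did not. *cenph* was at 242%, 241% and 245% in the former and at 104%, 101% and 103% in the latter, *btg4* at 273%, 287% and 333% and at 115%, 136% and 108%, and *lonrf3* at 291%, 293% and 275% and at 101%, 111% and 90.5%. The 4 genes thus had higher means in each group with the MO than in each group without it. The same held for *nefl* (217%, 257% and 184% with the MO, 150%, 89.3% and 156% without). It also held for *klf2* (182%, 203% and 168% with the MO, 148%, 109% and 158% without). It did not hold for *plod2*, *cyp26a1*, *isl1* or *slitrk5*. The first 4 genes were also higher with the T-box MOs than with a control MO in the separate stage 10+ experiment on 4 T-box factors. Their log2 fold changes there were 0.95 for *pdia6*, 1.50 for *cenph*, 1.96 for *btg4* and 3.31 for *lonrf3* (adjusted p = 5.13e-05, 1.10e-05, 2.46e-05 and 0.000621). In that experiment *klf2* rose less (log2 fold change 0.29, adjusted p = 0.034) and *nefl* was not called (log2 fold change -0.08, adjusted p = 0.411). Genes without that pattern were called there too. *cyp26a1*, *isl1* and *slitrk5* were higher (log2 fold change 0.47, 0.49 and 0.34, adjusted p = 0.000245, 0.0958 and 0.0512), and *plod2* was lower (log2 fold change -0.77, adjusted p = 0.0306). Of all genes tested there, 8.07% rose at least 1.5-fold, and both of its groups received MOs. For the genes with higher means in the MO groups, MO injection and the loss of Wnt signaling cannot be told apart.

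Of 16 maternally supplied transducers of the 3 signals, 10 were kept (62.5%, against 61.7% of all genes) and 6 were unresolved, with a median log2 fold change of -0.08. By the test 3 of the 16 fell (18.8%, against 5.52% of all genes), and 3 of the 16 fell by intron counts (against 5.96% of all genes with intron counts). The type I and II receptor genes *acvr1*, *acvr1b* and *acvr2b* fell by less than 1.5-fold (log2 fold change -0.49, adjusted p = 0.00063, log2 fold change -0.53, adjusted p = 0.00206 and log2 fold change -0.42, adjusted p = 0.00744), and without the block only *acvr1b* of them was called (adjusted p = 0.465, 0.0909 and 1), as it was without replicate 2 (adjusted p = 0.103, 0.0228 and 0.299). *smad1*, *smad2*, *smad3* and *tcf7l1* were kept. *foxh1* was unresolved at 254%, 82.8% and 67.2% of control. Of 16 p53 and stress genes, *egr1*, an immediate early gene, was lost (6.73%, 23.8% and 24.6% of control; log2 fold change -2.52, adjusted p = 0.0186) and *gadd45a* partly lost (16.6%, 40.3% and 65.8%; log2 fold change -1.50, adjusted p = 0.0299), 3 were kept and 11 unresolved, and neither fall was called without replicate 2 (0.379 and 0.485), nor that of *gadd45a* without the block (0.175). Of the p53 targets, *cdkn1a* was at 40.4%, 68.3% and 217% of control, *ccng1* at 32.1%, 73.8% and 168% and *mdm2* at 32.4%, 72.3% and 159.6%, and none of these was called. Of the 16 p53 and stress genes, 12.5% fell at least 1.5-fold, against 3.27% of all genes. In the list 0 genes rose by edgeR's test, 0 at an unadjusted p under 0.05 and 0 by DESeq2.

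Some zygotic genes with maternal RNA kept their exon level within 1.5-fold while their intron counts fell. Of 1808 zygotic genes that were kept by exon counts and had enough intron reads, 67 (3.71%) fell at least 1.5-fold by intron counts and 13 (0.719%) rose, against 214 (2.67%) and 59 (0.736%) of 8019 kept genes in all and 5.61% and 1.24% of all 11499 genes with intron counts. All 67 had a maternal level of at least 0.1 TPM, as did 1982 of all 1995 kept zygotic genes. *atp1b3*, a beta subunit gene of a sodium and potassium pump, had 947, 571 and 456 normalized intron counts in the control and 106, 149 and 101 in the triple LOF (log2 fold change -2.48 ± 0.28 (SE), adjusted p = 1.35e-06), at an exon change of -0.37 (95% interval -0.56 to -0.19). *fn1*, fibronectin, had 427, 215 and 132 against 42.9, 83.8 and 66.6 (log2 fold change -1.97 ± 0.37 (SE), adjusted p = 0.0009), at an exon change of -0.17 (95% interval -0.31 to -0.03). The exon intervals of *atp1b3* and *fn1* lay wholly on the side of a fall, so their exon levels were somewhat lower too. In both genes the intron counts of the groups did not overlap, and the exon intervals stayed within 1.5-fold. The same held for *cmtm7* (378, 186 and 278 against 10.3, 12 and 34.6; log2 fold change -3.91 ± 0.48 (SE), adjusted p = 4.75e-06), which fell most, and for the lysosomal gene *ctsa* (539.8, 188 and 229 against 34.5, 47.9 and 73.5; log2 fold change -2.53 ± 0.39 (SE), adjusted p = 8.80e-05). The FGF receptor gene *fgfr1*, the heparan sulfate carrier *gpc4* and the BMP effector *smad1* had intron changes of -1.15, -1.27 and -0.73 on the log2 scale (adjusted p = 0.0222, 5.74e-06 and 0.0158). Their exon changes were -0.32, -0.24 and 0.09, with the intervals of *fgfr1* and *gpc4* wholly on the side of a fall. These genes were picked for naming after their values were seen. Reads were counted without strand, so intron reads of a gene may come from a neighbor that overlaps it.

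**Figure D4:**
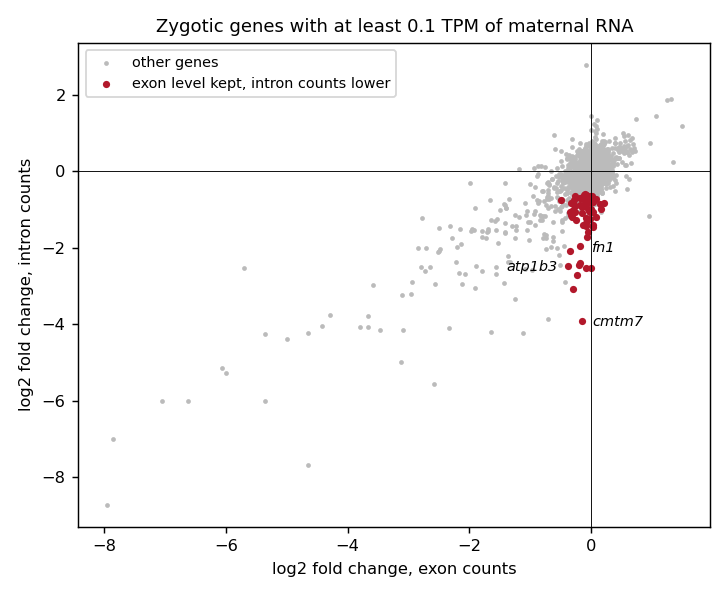
Log2 fold change of exon counts (x axis) against that of intron counts (y axis) for 2231 zygotic genes with at least 0.1 TPM of maternal RNA, 1 point per gene. The 67 marked genes have an exon level classed as kept and intron counts that fell at least 1.5-fold, and *cmtm7*, *atp1b3* and *fn1* are named.

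Of the 3 double LOFs, Wnt/Nodal LOF gave the fewest direct differences from the triple LOF. In the direct test against Wnt/Nodal LOF no gene was lower (0.0%) and 1 was higher (0.00625%) by edgeR's test, with 247 lower and 186 higher at an unadjusted p under 0.05; no gene passed without the replicate block. The 1 gene, named for that reason, was *fzd4*, a Wnt receptor gene, at 2027, 2232 and 2221 normalized counts in the triple and 948, 727 and 871 in the double LOF (log2 difference 1.37 ± 0.16 (SE), adjusted p = 0.00292). The 75 lost solely zygotic genes had a median log2 difference of 0.02 from Wnt/Nodal LOF. A missing call does not show that adding BMP inhibition changed nothing: without replicate 1, 16 genes were lower and 13 higher than in Wnt/Nodal LOF.

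Against Wnt/BMP LOF, in which no Nodal receptor inhibitor was added, 28 genes were lower (0.175%) and 1 higher (0.00625%), and 11 of the 75 lost solely zygotic genes were among the lower ones, with a median log2 difference of -1.24 over the 75. In Wnt/BMP LOF itself the mean level of *nodal1* was 45.6% of control, that of *lefty* 55.4% and that of *nodal3.1* 0%. *nodal1* was at 2.62, 26.7 and 13.6 normalized counts in the triple and 104, 672 and 549.8 in the Wnt/BMP LOF (log2 difference -4.90 ± 0.46 (SE), adjusted p = 2.20e-05). *bix1.1* was at 255, 446 and 262 against 1397, 2646 and 1872 (log2 difference -2.62 ± 0.16 (SE), adjusted p = 5.41e-08). *eomes* was at 503, 1648 and 854 against 2914, 11623 and 10406 (log2 difference -3.09 ± 0.38 (SE), adjusted p = 0.000617). The same direction, with a call, held for *lefty* (log2 difference -3.31 ± 0.34 (SE), adjusted p = 5.12e-05), *nodal2* (log2 difference -2.47 ± 0.22 (SE), adjusted p = 1.66e-05), *snai1* (log2 difference -1.73 ± 0.26 (SE), adjusted p = 0.00509) and *fgf8* (log2 difference -1.47 ± 0.23 (SE), adjusted p = 0.00657), genes of mesendoderm and its signals. The higher gene was *cyp26a1* (log2 difference 0.98 ± 0.17 (SE), adjusted p = 0.0141). The number of lower genes was 4 without replicate 2, 108 without replicate 1 and 13 without the block.

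Against Nodal/BMP LOF, in which no β-catenin MO was injected, 244 genes were lower (1.52%) and 106 higher (0.662%), and 32 of the 75 lost solely zygotic genes were lower, with a median log2 difference of -1.80. *nodal3.1* was at 0, 2.50 and 50.5 normalized counts in the triple and 571, 641 and 1138 in the Nodal/BMP LOF (log2 difference -5.62 ± 0.45 (SE), adjusted p = 4.27e-06). *sia1* was at 0, 0 and 19.2 against 181, 182 and 368 (log2 difference -5.35 ± 0.46 (SE), adjusted p = 2.46e-05). *chrd* was at 0, 5.00 and 142 against 1598, 2039 and 2367 (log2 difference -5.43 ± 0.65 (SE), adjusted p = 9.64e-05). These dorsal Wnt targets and organizer genes differed by more than the spread between libraries, as did *admp* (log2 difference -5.27 ± 0.48 (SE), adjusted p = 6.25e-06) and *foxd3* (log2 difference -3.97 ± 0.54 (SE), adjusted p = 0.00038). *hoxd1*, a Hox gene named after its values were seen, was at 14.9, 17.5 and 94.6 in the triple LOF against 838, 739 and 256 in the Nodal/BMP LOF (log2 difference -3.51 ± 0.67 (SE), adjusted p = 0.00797). The kept gene *ventx3.1* was higher in the triple than in the Nodal/BMP LOF, 1170, 1282 and 847 against 672, 957 and 640.5 (log2 difference 0.54 ± 0.09 (SE), adjusted p = 0.00193). Nodal/BMP LOF embryos had no MO injected, which cannot be told apart from the loss of Wnt in this comparison. Without replicate 2 the counts were 23 lower and 8 higher, and without the block 74 and 21.

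**Figure D5:**
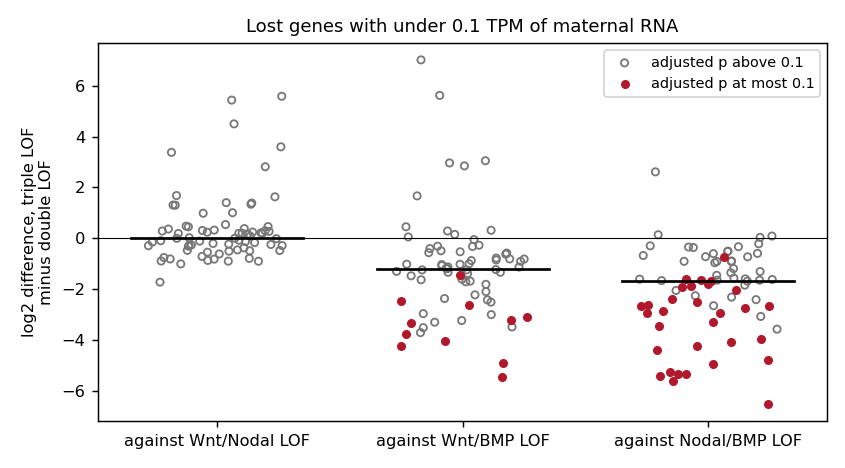
Log2 difference (y axis) between the triple LOF and each double LOF for 72 of the 75 lost solely zygotic genes, leaving out 3 without reads in the triple LOF; bars mark medians and filled points genes with an adjusted p of at most 0.1. No point is filled against Wnt/Nodal LOF, 11 are filled against Wnt/BMP LOF and 31 against Nodal/BMP LOF.

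Each group set beside the same control gave the following for the 75 lost solely zygotic genes, where the comparisons share the control libraries and the genes were chosen by the triple LOF. Wnt LOF lowered 41 of them (2.72% of all genes fell), Nodal LOF 53 (2.07%) and BMP LOF 0 (0.0312%), with 5 lower and 1 higher at an unadjusted p under 0.05. Wnt/Nodal LOF lowered 73 (4.37%), Wnt/BMP LOF 59 (5.09%) and Nodal/BMP LOF 50 (2.25%). The median log2 fold changes were -1.98, -2.46 and -0.44 in the single LOFs and -3.83, -2.46 and -2.17 in the double LOFs, against -3.94 in the triple LOF.

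The lost genes were also looked up in a separate experiment with its own controls, in which MOs against 4 zygotic T-box factors (zygotic VegT, Eomes, Tbxt and Tbxt.2) were injected together, a control MO was injected in their place in the controls, and embryos were collected at stage 10+, the early gastrula (4 libraries per group). Of the 75 lost solely zygotic genes, 30 (40.0%) were at least 1.5-fold lower there and 8 (10.7%) at least 1.5-fold higher, where 654 of 15374 genes tested (4.25%) were lower and 1240 (8.07%) higher. Of the 13 kept genes, 1 was lower and 2 were higher. The other solely zygotic classes had 7 of 19 partly lost genes lower (36.8%), 20 of 108 unresolved ones (18.5%) and 0 of 10 higher ones. The share was thus above that of all genes in the partly lost and unresolved classes too. Without the replicate block of that experiment, 18 of the 75 and 0 of the 13 were lower, and the share of all genes in that fit was not computed.

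Nascent RNA, selected by the uridine analog 4sU, was measured in 1 library per stage without replicates. Its enrichment over input at stage 8+ had a median of 13.7 (quartiles 9.25 and 16.8) over 50 lost solely zygotic genes, 15.8 (11.0 and 29.0) over 9 kept ones and 14.9 (10.4 and 19.7) over 58 unresolved ones, against 0.763 over 11464 genes. At stage 10+ the medians were 7.66 (66 genes), 10.9 (9 genes) and 7.16 (72 genes), against 0.669. The medians of all 3 classes thus lay above that of all genes at both stages. These genes were chosen for little maternal RNA, so that contrast says nothing about loss. The quartile ranges of the classes overlapped at both stages (at stage 10+, 5.38 to 9.72 for lost and 8.06 to 11.6 for kept genes). Over all zygotic genes, the medians at stages 8+ and 10+ were 12.6 and 8.44 for lost genes, and 1.05 and 1.45 for kept genes. Of the kept zygotic genes, 1982 of 1995 had a maternal level of at least 0.1 TPM, against 56 of the 131 lost ones. This last contrast therefore does not separate response class from maternal level, and among solely zygotic genes the kept ones had no lower medians.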

How the data were processed

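Poly(A) RNA of the 24 stage 9+ libraries, 8 groups of 3, was used here, with 8 stage 10+ libraries of the T-box experiment and 4 libraries of nascent RNA and its input. The authors aligned read pairs with STAR 2.5.3a, guided by the assembly's gene models, and deposited unnormalized exon and intron counts per gene, made without regard to strand, so that overlapping genes and near-identical copies (histones, *nodal3*, *sox17*, *ventx* and zinc finger genes) are uncertain. The labels of 2 triple LOF samples give other code numbers for the BMP inhibitor, which was taken as the one named in the methods.

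Counts were analyzed with edgeR 4.0.16 in R 4.3.3: TMM scaling, the default filter on low counts by condition, and a quasi-likelihood test with Benjamini-Hochberg adjustment over all genes tested (14 residual degrees of freedom). The model held the condition and the replicate number. Libraries of 1 number came from 1 female, whose letter stands in the deposited names, and their deviations from the group means correlated at 0.616, 0.748 and 0.601 for the triple LOF and its control, against -0.437 to -0.214 for different numbers. The authors' own DESeq2 model had the condition alone. The sample labels give DESeq2 1.14.1, and the paper's methods give a later version. That model was not rerun: the fit without the block used edgeR, and the DESeq2 alternative kept the replicate number. P-values rest on the spread left between libraries after condition and replicate number, estimated over all 8 groups. Differences between the 3 clutches that all groups share are taken out by the block.

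The zygotic genes are those in the study's list of genes covered by RNA polymerase II by the MBT, from which membership alone was taken. Named genes are the members of 18 lists, the called genes with a symbol that fell most (15) or rose most (10), given at least 50 normalized counts in the higher group and the same direction in all pairs, and the kept solely zygotic genes with a symbol. Some of them are counted but not reported here by name. Lists, rules and alternatives were chosen with earlier results of these data known. Nascent RNA is the ratio of selected to input counts after DESeq2 1.42.0 size factors, for genes with at least 10 input counts. Counting intervals are exact binomial intervals of the triple LOF share of the reads pooled with the control, rescaled to % of control, and cover counting error only. Alternatives changed the block, the libraries in the fit, the scaling, the filter, the tool and the replicates used.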

Additional observations from a re-analysis of the deposited data

How the results depend on the processing

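The edgeR fit without the replicate block held the condition alone, as the authors' DESeq2 model did. It changed more counts than any choice of scaling, filter or tool, none of which moved a count of the main comparison by over 1.5 times. Without the replicate block, 419 genes were lower and 59 higher by exon counts, and 446 and 55 by intron counts. Of all zygotic genes 74 were then partly lost, 11 higher and 882 unresolved, and of the solely zygotic ones 7 were partly lost, 4 kept and 3 higher. The differences from the double LOFs without the block were 0 genes higher for Wnt/Nodal, 13 lower and 0 higher for Wnt/BMP, and 74 lower and 21 higher for Nodal/BMP LOF. In the T-box experiment without the block, 18 lost genes and 0 kept genes were lower. With the 6 libraries of the comparison alone and the replicate block, 209 genes were lower and 13 higher. Of all zygotic genes 122 were then at least 1.5-fold lower, 85 lost, 37 partly lost, 7 higher and 876 unresolved, and of the solely zygotic ones 53 were lower, 49 lost, 4 partly lost, 8 kept and 2 higher. With the 6 libraries and no replicate block, 201 genes were lower and 10 higher. Of all zygotic genes 132 were lower, 38 partly lost, 5 higher and 1026 unresolved, and of the solely zygotic ones 56 were lower, 4 partly lost, 3 kept and 1 higher.

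Leaving out replicates or single libraries gave 278 to 1339 genes lower and 37 to 794 higher by exon counts, and 347 to 874 and 33 to 252 by intron counts. For all zygotic genes the ranges were 141 to 277 lower, 86 to 148 lost, 55 to 133 partly lost, 1654 to 2041 kept, 8 to 84 higher and 479 to 1025 unresolved. For solely zygotic genes they were 54 to 97 lower, 47 to 77 lost, 7 to 24 partly lost, 7 to 27 kept, 1 to 24 higher and 89 to 164 unresolved. Apart from unresolved genes, where they were the highest, the lowest values came without replicate 2. The differences from Wnt/Nodal LOF ranged from 0 to 16 lower and 0 to 13 higher, those from Wnt/BMP LOF from 4 to 108 and 0 to 3, and those from Nodal/BMP LOF from 23 to 272 and 8 to 105. The cause was not tested.

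Of the 233 genes of the lists and rules, 113 were called, 49 of them in all of 16 alternatives; 30 calls were lost without the replicate block and 51 without replicate 2, and 36 of the other 120 genes were called in some alternative. Without replicate 1, *smad3* turned to a log2 fold change of -0.29, against 0.28 without replicate 3. By intron counts *btg4* turned to -0.27, *foxh1.2* to -0.030, *ctnnb1* to 0.47, *smad1* to -0.73, *tcf7* to -1.86 and *mdm4* to -1.38. Nascent enrichment at stage 10+ was 5.41 for lost and 7.67 for kept genes with total counts, and 8.03 for kept genes with no minimum of input counts. Depth limits genes with few reads: *sia2*, *sia.3*, *dkkx* and *sla* had at most 3 exon reads in the triple LOF.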
